A study of Mus musculus with 11 samples.

Results

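The cycling cells of the embryonic day 14 (E14) cochlear duct were examined in droplet single-cell RNA-seq (10x Chromium) of wildtype CD1 mice. A cell was taken as cycling when it held at least 1 unique molecular identifier (UMI, a tag that marks 1 captured RNA molecule) of Top2a, 1 of Mki67 and 1 of at least 1 of Ube2c, Cenpf and Ccnb1. Members were thus chosen by detection of these 5 genes. The gate found 278 of 5253 E14 cells, 94 of 2198 in library 1 and 184 of 3055 in library 2, and 30634 cells were deposited over 11 libraries at E14, E16, P1 and P7. They were compared with the 4183 E14 cells that held no UMI of any of the 5 genes (1792 and 2391), called non-cycling here. The remaining 792 E14 cells held some of the 5 genes and belonged to neither class. All groups were untreated wildtype animals, and each library pooled the ducts of several embryos or pups of 1 litter and of either sex, so that animals cannot be told apart within a library.

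At E14 the duct floor is an epithelium in transition. Its prosensory cells, the precursors of hair cells and supporting cells, have largely left the cell cycle under the inhibitor Cdkn1b (p27Kip1), whereas cells of the flanking ridges, Kölliker's organ on the medial side and the lesser epithelial ridge on the lateral side, go on dividing. A dividing cell makes histones, nucleotides and replication factors in S phase and then, in G2 and mitosis, cyclin B, spindle motors, kinetochore proteins and the ubiquitin ligase that separates the chromosomes. Many G2 and mitosis genes share promoter elements. These are the CCAAT box bound by NF-Y and the cell cycle homology region bound by the DREAM and MuvB complexes. The latter was searched for here as TTTGAA or TTCGAA.

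The promoters of the 5 gate genes are shown because these genes chose the cells. Each run holds the 250 bases before 1 RefSeq transcription start of the gene, on its strand (GRCm38.p6), 5′ to 3′. Capitals mark the CCAAT box and the forms TTTGAA and TTCGAA of the cell cycle homology region on either strand. Other forms of that region were not searched for, so a window without these capitals may still hold it. For Top2a, Mki67 and Cenpf the annotated gene begins further upstream, inside the window. The Top2a window lies at chr11:99024190-99024439 (minus strand), that of Mki67 at chr7:135716380-135716629 (minus), that of Ube2c at chr2:164769679-164769928 (plus), that of Cenpf at chr1:189688087-189688336 (minus) and that of Ccnb1 at chr13:100786487-100786736 (minus).
Top2a: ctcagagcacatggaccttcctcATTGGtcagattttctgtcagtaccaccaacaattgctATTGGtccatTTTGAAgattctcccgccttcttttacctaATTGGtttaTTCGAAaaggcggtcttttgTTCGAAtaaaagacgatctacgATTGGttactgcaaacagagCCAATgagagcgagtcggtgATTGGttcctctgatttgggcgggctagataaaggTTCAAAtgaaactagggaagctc
Mki67: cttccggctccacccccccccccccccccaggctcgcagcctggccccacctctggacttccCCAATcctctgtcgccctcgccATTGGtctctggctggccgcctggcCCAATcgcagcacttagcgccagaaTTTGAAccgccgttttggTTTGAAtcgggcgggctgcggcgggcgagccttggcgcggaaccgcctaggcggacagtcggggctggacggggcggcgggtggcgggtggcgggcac
Ube2c: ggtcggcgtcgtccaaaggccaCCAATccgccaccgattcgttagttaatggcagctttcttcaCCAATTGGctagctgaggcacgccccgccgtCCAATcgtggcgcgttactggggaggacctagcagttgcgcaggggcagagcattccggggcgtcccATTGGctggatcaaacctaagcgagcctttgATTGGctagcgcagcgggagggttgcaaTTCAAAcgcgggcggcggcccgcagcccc
Cenpf: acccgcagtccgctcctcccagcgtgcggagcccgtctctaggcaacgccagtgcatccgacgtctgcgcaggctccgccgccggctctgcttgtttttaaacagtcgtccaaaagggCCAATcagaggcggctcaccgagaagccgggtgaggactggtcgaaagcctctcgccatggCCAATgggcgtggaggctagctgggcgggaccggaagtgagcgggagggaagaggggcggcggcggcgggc
Ccnb1: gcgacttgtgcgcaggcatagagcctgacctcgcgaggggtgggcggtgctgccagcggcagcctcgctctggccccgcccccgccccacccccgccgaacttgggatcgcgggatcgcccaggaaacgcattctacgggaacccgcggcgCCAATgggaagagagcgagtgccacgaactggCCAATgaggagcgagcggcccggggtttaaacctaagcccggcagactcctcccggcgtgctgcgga

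All 5 windows held at least 2 CCAAT boxes, with 6 in Top2a, 3 in Mki67, 6 in Ube2c, 2 in Cenpf and 2 in Ccnb1. In Ube2c a pair of the boxes, on opposite strands, overlap. Over all 32851 RefSeq promoter windows of the same length, 10.1% held 2 or more and 33.8% held at least 1. TTTGAA or TTCGAA was found in Top2a, Mki67 and Ube2c, beside 17.1% of all windows. The other cell cycle genes examined below had 189 windows for 164 of 202 genes, of which 61.9% held CCAAT and 27.0% held TTTGAA or TTCGAA. The spindle and cytokinesis genes had TTTGAA or TTCGAA in 39.0% of 41 windows and the S phase genes in 17.1% of 35. The E2F-type letters TTTCCCGC or TTTGGCGC stood in 20% of the S phase windows, 4.88% of the spindle windows and 1.30% of all windows. They stood in 16.1% of the windows of centromere, kinetochore and condensin genes and in none of nucleotide synthesis genes. These are matches of letters and not tested sites.

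Within the cycling cells the gate genes were present at a few molecules per cell. Ube2c, the ubiquitin-conjugating enzyme of the anaphase-promoting complex, was the most abundant, with a median of 4.5 UMIs in library 1 and 5 in library 2. It was found in 92.1% of the 278 cells. Cenpf, a kinetochore protein, was found in 79.5% and Ccnb1, cyclin B1, in 65.8%. Top2a, which untangles replicated DNA, and Mki67, a coat of mitotic chromosomes, were present in every member by the rule, at medians of 2 and 1.5 UMIs. Mean levels, as counts per 1000000 UMIs averaged over cells (CPM), were 369 and 409 for Top2a, 281 and 287 for Mki67, 835 and 896 for Ube2c, 319 and 354 for Cenpf and 286 and 255 for Ccnb1 in libraries 1 and 2. The 2 libraries lay close to each other for each of the 5 genes.

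All 5 gate genes were found in 146 members, 2 of the 3 further genes in 90 and only 1 in 42. Just inside the threshold were 5 cells with a single UMI of each gene that counted. Just outside were 22 cells with Top2a and Mki67 but none of the other 3, and 274 cells had Top2a without Mki67.

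Members were far deeper than the other cells. Their median was 7788 and 8228.5 UMIs per cell, against 3381.5 and 3072 in non-cycling cells, or 2.30 and 2.68 times as many. They also held a median of 3161.5 and 3156.5 genes, against 1735.5 and 1629, and 55.3% and 55.4% of them had more than 3000 genes, against 12.2% and 13.7%. A deeper cell is more likely to show a UMI of every gate gene, and the part of depth in the gate was not tested. CPM are relative to the RNA captured from a cell, so a CPM that is equal in the 2 classes goes with more molecules in a cycling cell. A doublet caller (Scrublet) marked only 4 and 3 of the E14 cells, 1 of them cycling, which is too few to judge doublets. Its median score was higher in cycling cells of both libraries (0.0803 and 0.0669 against 0.0523 and 0.0562), and the part of doublets in the results was not tested.

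Markers of other cell types were near 0 in the members. The mesenchyme list made up at most 0.0849% of a member's UMIs, the blood, endothelium and immune list at most 0.0848% and the neuron and glia list at most 0.149%. At least 1 UMI of the lists was found in 14.4%, 18.3% and 80.6% of members and in 9.71%, 12.7% and 55.2% of the shallower non-cycling cells. The neuron and glia list had a median of 0.0254% of UMIs in members and 0.0174% in non-cycling cells, and its part in the results was not tested. Of the 67 E14 cells with UMIs of both hair cell genes Pou4f3 and Ccer2, which have left the cycle, none held a UMI of Top2a or Mki67 (a count of 0 allows up to 4.48%).

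The mean share of cells passing the gate was lower in the postnatal than in the embryonic libraries, but single libraries overlapped. It was 4.28% in E14 library 1 (exact 95% interval 3.47 to 5.21) and 6.02% in library 2 (5.21 to 6.93). At E16 the gate passed 8, 19 and 13 cells of the 3 libraries, at P1 none of 14043 cells in 4 libraries and at P7 2 and 8 cells in 2 libraries. With every cell thinned at random to 1500 UMIs (1 shallower E16 cell was left out), the shares were 0.637% and 0.917% at E14, 0.321%, 0.178% and 0.0769% at E16, 0 in all 4 P1 libraries, and 0 and 0.187% at P7. The embryonic libraries had a mean of 0.426% (n = 5) and the postnatal ones of 0.0312% (n = 6; exact permutation test, two-sided, p = 0.013). The P7 library at 0.187% lay above the E16 libraries at 0.178% and 0.0769%. The gate was written for the E14 cells, which are in the embryonic group, so this p is not evidence apart from that choice. Both E14 libraries lay above all other libraries. In an exact permutation test, 2 libraries against 3 cannot give a p under 0.2. The E14 shares were not tested against those of E16. The intervals cover counting error only.

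**Figure D1:**
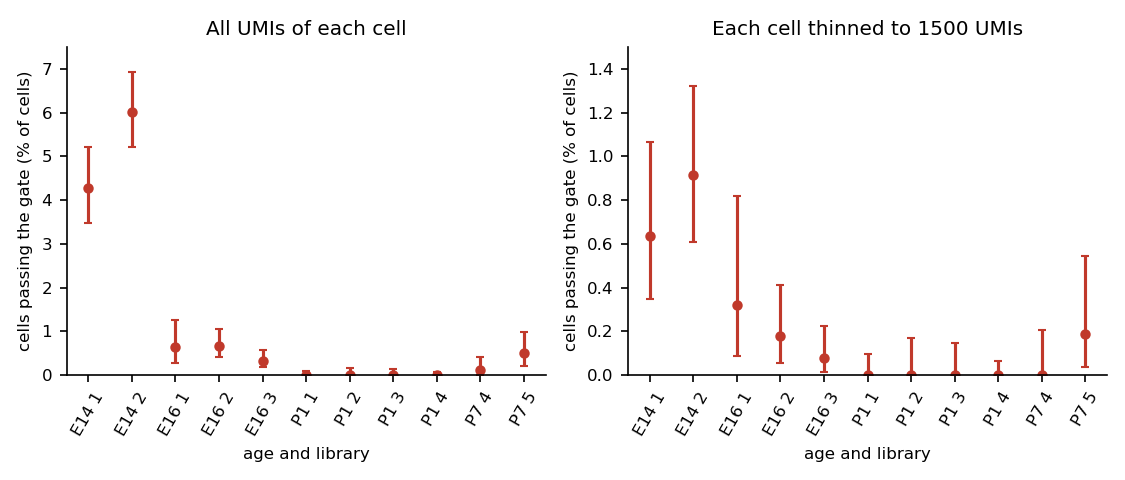
Cells that pass the 5-gene gate in each library, as a percent of the library's cells, from all UMIs (left) and after thinning each cell to 1500 UMIs (right), with exact 95% binomial intervals. The 2 E14 libraries lie highest in both panels and the 4 P1 libraries lie at 0.

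Beyond the gate genes, cell cycle genes were higher in the cycling cells, those of G2 and mitosis more than those of S phase. The genes of 7 cell cycle lists held 202 genes besides the 5 of the gate, and 182 of them averaged at least 10 CPM over the 4 class means and were compared. Of these, 176 were higher in cycling cells in both libraries and 3 were lower in both. Over all 8975 genes compared, 34.9% were higher in both libraries and 38.3% were lower. Log2 differences, here and below, are of log2(CPM + 10), cycling minus non-cycling, averaged over the 2 libraries. The median was 1.58 for the cell cycle genes and -0.02 for all genes, and 138 of the 182 exceeded 1, as did 2.85% of all genes. The gate chose cells by genes of the same programme, mostly of G2 and mitosis. The order of the mitotic over the S phase genes, here and below, was thus built in by the gate. These lists are described with no test.

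The mitotic lists stood highest. The 24 cyclins and mitotic kinases compared had a median log2 difference of 2.27. Cdk1, the kinase that drives entry into mitosis, was at 329 and 381 CPM in cycling cells and 13.4 and 12.9 CPM in non-cycling cells of libraries 1 and 2. Ccna2 (cyclin A2) was at 201 and 202 CPM against 3.80 and 4.61 CPM. Pbk, a mitotic kinase, was at 242 and 216 CPM against 5.23 and 4.32 CPM. At the low end of the list stood the G1 to S regulators Ccne1 (cyclin E1), with a log2 difference of 0.77, and Cdc25a, with 0.54.

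The 31 centromere, kinetochore and condensin genes had a median log2 difference of 2.24. Birc5 (survivin), of the chromosomal passenger complex, was at 456 and 474 CPM against 10.4 and 11.6 CPM. Cenpa, the histone H3 of centromeres, was at 574 and 645 CPM against 31.5 and 32.6 CPM. Zwint, a kinetochore adaptor, was the exception, at 273 and 256 CPM in cycling and 328 and 315 CPM in non-cycling cells. The 30 genes of the spindle and cytokinesis had a median of 2.34, led by Nusap1 (log2 difference 4.16), Racgap1 (3.54) and Prc1 (3.39), and all 30 exceeded 1. The 14 genes of anaphase had a lower median, 1.40, and 9 of them exceeded 1. Among them, the activator Cdc20 was at 357 and 349 CPM against 15.2 and 13.4 CPM. Securin (Pttg1) was at 480 and 495 CPM against 40.7 and 53.3 CPM. The anaphase-promoting subunit Cdc16 differed little, with a log2 difference of -0.20.

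S phase genes differed less. All 38 compared were higher in both libraries, with a median log2 difference of 1.25. Pclaf, a PCNA-binding factor, was at 752 and 832 CPM against 33.0 and 40.8 CPM, and Pcna itself at 99.2 and 84.4 CPM against 36.8 and 30.1 CPM. The subunits of the replicative helicase ranged from Mcm5, with a log2 difference of 1.38, to Mcm2, with 0.38, and Mcm4, with 0.34. Of 16 genes of nucleotide synthesis, Tk1 (2.63) and Rrm2 (2.27) led in log2 difference and the folate enzyme Mthfd1 was lowest (-0.26). Among 29 chromatin and tubulin genes linked to replication, H2afx was at 995 and 1051 CPM against 125 and 111 CPM and Hmgb2 at 1654 and 2000 CPM against 320 and 348 CPM. Histone and tubulin genes have close copies, and how reads were divided among them is uncertain.

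The lists, the gate genes left out, were also summed in each cell. The 4 mitotic lists together made up a median of 1.27% of a member's UMIs in both libraries, against 0.314% and 0.308% in non-cycling cells. The S phase list made up 0.343% and 0.355%, against 0.0989% and 0.0943%. Members with all 5 gate genes had median mitotic sums of 1.64% and 1.52% and S phase sums of 0.294% and 0.318%, and those with only 1 of the 3 further genes 1.04% and 0.938% and 0.477% and 0.499%. The 22 cells just outside the gate had S phase sums of 0.869% and 0.506%. Some non-cycling cells also carried the programme, up to 2.50% mitotic and 1.69% S phase RNA.

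**Figure D2:**
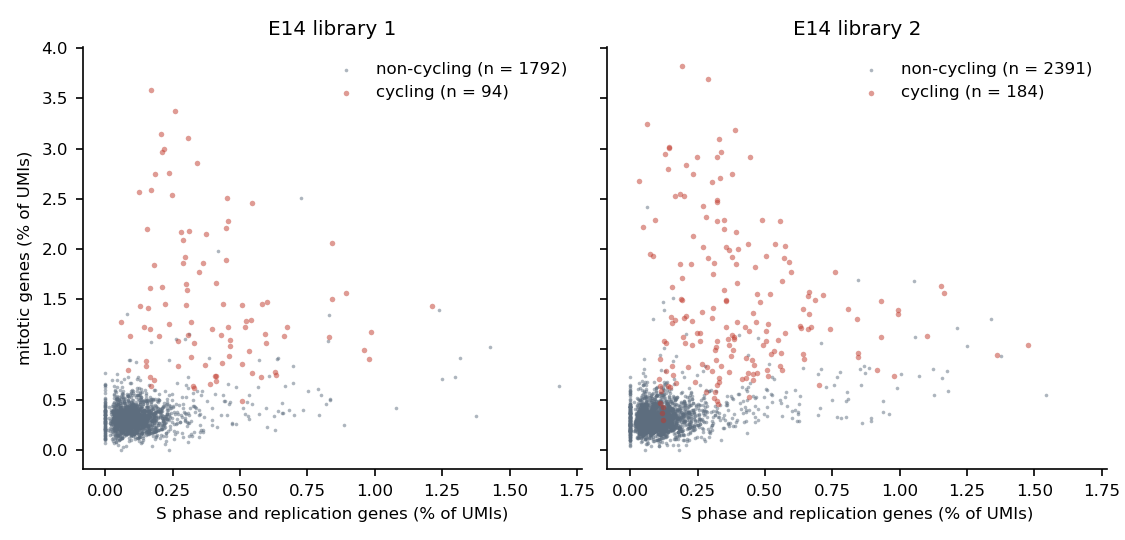
Each point is 1 E14 cell, with the percent of its UMIs from S phase and replication genes (x axis) and from mitotic genes (y axis), for libraries 1 and 2. Cycling cells (red) reach 3.82% mitotic RNA, and the non-cycling cells (grey) have medians near 0.31% on the y axis and below 0.1% on the x axis.

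Over all genes compared, cell cycle genes included, 28.9% passed the test at an adjusted p under 0.05 (limma on class means with library as a block, Benjamini-Hochberg over 8975 genes), with 1198 higher (13.3%) and 1397 lower (15.6%) in cycling cells. That share is the background for the counts of the main fit below. A gene can reach the minimum mean of 10 CPM through 1 class alone. Fewer genes were called without the library block (12.2%), with all 5 gate genes required (15.4%) and with no filter on low values (14.1%). The share was 12.2% among cells of at most 3000 genes and 10.2% among cells with an Epyc UMI. Counts under these settings stand against those shares. With 2 libraries the fit has 1 residual degree of freedom a gene and takes its spread almost wholly from all genes together. Each SE after ± below thus holds that shared spread and is not the gene's own spread between the 2 libraries. When the 3 E16 libraries, with 8 to 19 cycling cells each, shared the spread, the calls dropped to 38 higher and 2 lower, and to 1128 and 1353 when limma weighted each library by its scatter. Of 71 genes chosen by the naming rule, called at E14 and compared in those fits, which were added after seeing the data, 68 lost the call without weights and none with them. Cdkn1b, Epyc, Bmp4, Oc90, Otoa, Fgfr3 and Fst were among the 68.

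**Figure D3:**
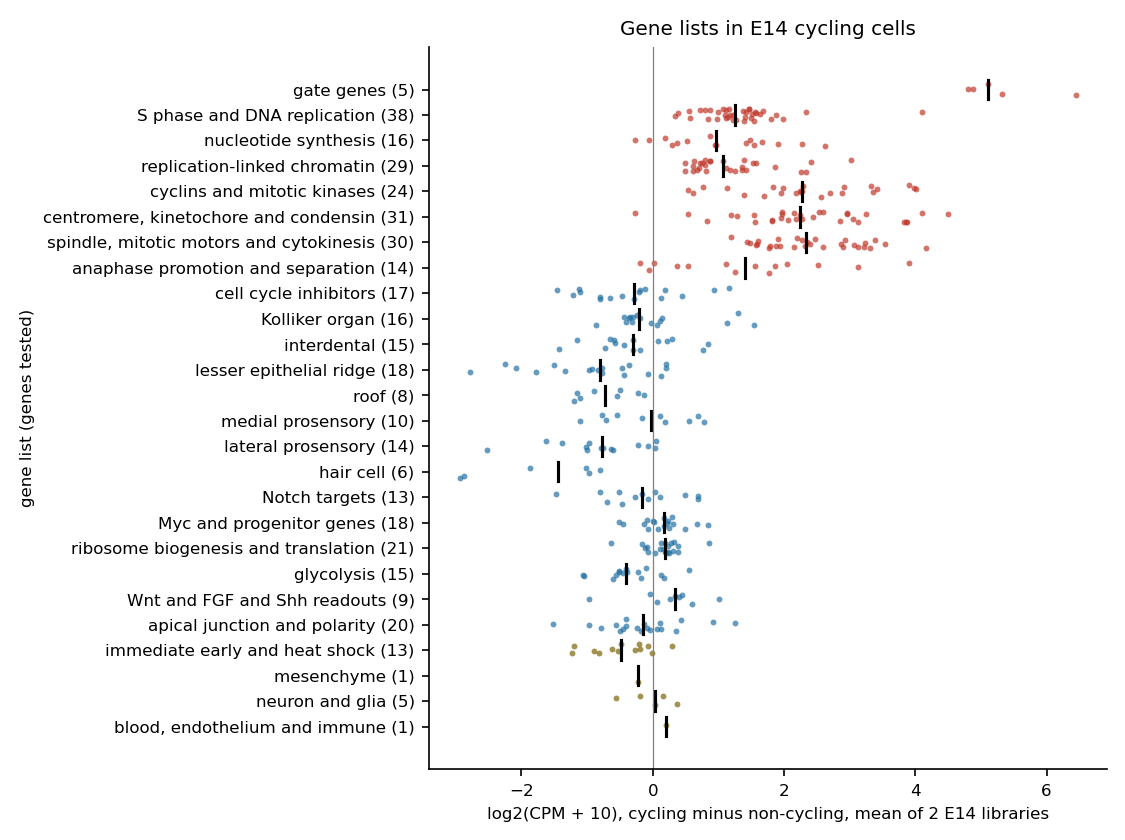
Log2 difference of CPM + 10, cycling minus non-cycling E14 cells, for each gene compared (points) by gene list, with the list median as a black bar. Cell cycle lists (red) have medians from 0.96 to 5.11, and the lesser epithelial ridge, roof and lateral prosensory lists (blue) have medians below -0.7.

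In the list of cycle inhibitors and related genes, more genes were lower than higher in the cycling cells. The count is of the whole list and not of inhibitors alone. The gate chose cells by cell cycle genes, so these differences are not evidence apart from it. Of 17 inhibitors and related genes compared, 9 fell, 3 rose and 5 did not pass (6 fell and 3 rose without the library block). Cdkn1b was at 6.69 and 13.2 CPM in cycling and 35.2 and 29.5 CPM in non-cycling cells of libraries 1 and 2, a log2 difference of -1.10 ± 0.20 (SE; limma adjusted p = 1.94e-06). In CPM its classes did not overlap, but among cells with an Epyc UMI the call was lost. By detection the classes were closer in library 2 than in library 1. Without thinning, Cdkn1b was found in 6.38% and 8.70% of cycling and 11.8% and 8.95% of non-cycling cells. In thinned cells the shares were 0 and 2.17% against 5.36% and 3.81%. Among thinned cells of at most 3000 genes they were 0 and 3.66% against 5.47% and 3.78%. Cdkn1b averaged 9.94 CPM in cycling cells and reached the 10 CPM minimum through the non-cycling cells. Cdkn1c (p57Kip2), far more abundant, fell from 967 and 912 CPM to 542 and 528 CPM, by 0.80 on the log2 scale. Gadd45g, a stress and differentiation gene, was at 95.6 and 100.5 CPM against 306 and 267 CPM, and the antiproliferative Btg2 at 107 and 95.7 CPM against 269 and 230 CPM. Of the D-type cyclins, which are not inhibitors, Ccnd2 fell by 1.13 and Ccnd1 rose by 0.45. Ccnd1 did not pass among cells of at most 3000 genes or with the stricter gate of all 5 genes. The pocket protein gene Rbl1, itself an E2F target, rose by 1.17. The inhibitor gene Cdkn2d also rose, by 0.94, from 28.3 and 23.8 CPM to 74.2 and 46.4 CPM, a call lost among cells with Epyc.

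The genes that mark the regions of the duct floor divided the cycling cells as follows. After thinning to 1500 UMIs, 55.3% and 62.5% of members held a UMI of none of the 6 genes used (Epyc, Bmp4, Oc90, Otoa, Fgf20 and Fgfr3), against 32.8% and 39.7% of non-cycling cells. Shares below are of thinned cells in libraries 1 and 2, each beside the level of the gene and its test.

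Epyc, an extracellular matrix proteoglycan of Kölliker's organ, was found in 23.4% and 18.5% of members (exact 95% intervals 15.3 to 33.3 and 13.1 to 24.9) and in 26.7% and 23.3% of non-cycling cells. Its level was 350 and 235 CPM against 579 and 482 CPM, a log2 difference of -0.86 ± 0.09 (limma adjusted p = 1.30e-18). With non-cycling cells weighted to the UMI depths of the cycling cells, the difference was -0.16 and no longer passed (limma adjusted p = 0.18). Among the 28 and 39 hair cells, which should lack Epyc and had medians of 4857 and 5850 UMIs, 3.57% and 0 held a UMI. In thinned members Epyc was found slightly more often than Oc90 in both libraries, with overlapping intervals. Without thinning Oc90 was found more often (54.3% and 44.6% against 48.9% and 33.7%), and at 10 or more UMIs in thinned members Oc90 was found in 6.38% and 9.24% and Epyc in none.

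Bmp4, the growth factor of the lesser epithelial ridge, was rare in members. It was found in 3.19% and 0.543% (3 and 1 cells; intervals 0.663 to 9.04 and 0.0138 to 2.99), against 15.1% and 8.49% of non-cycling cells. Its level was 52.5 and 7.00 CPM against 214 and 75.4 CPM, a log2 difference of -2.08 ± 0.16 (limma adjusted p = 1.15e-29). Of the hair cells 2 in each library (7.14% and 5.13%) held Bmp4, so the members' shares are not above those of cells that should lack it. At 2 or more UMIs Bmp4 was found in 2 thinned members of library 1 and in none of library 2. The libraries differed from each other in both classes, and without library as a block the call was lost. Within each library the cycling cells lay lower.

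Oc90, an otoconial protein of the non-sensory roof and lateral wall, was found in 17.0% and 16.8% of members (intervals 10.1 to 26.2 and 11.7 to 23.1) and in 28.0% and 29.2% of non-cycling cells. Its level was 2709 and 2616 CPM against 5649 and 6670 CPM, a log2 difference of -1.20 ± 0.04 (limma adjusted p = 5.23e-76). Oc90 differed by -1.06 in library 1 and by -1.35 in library 2. Hair cells held it at 7.14% and 5.13% after thinning, and at 32.1% and 41.0% without, beside 54.3% and 44.6% of unthinned members, so that a single UMI of Oc90 was also common in cells that should lack it. At 10 or more UMIs in thinned cells, a mean of 7.81% of members and 17.5% of non-cycling cells held it.

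Otoa, a gene of interdental cells, was found in 2.13% and 2.72% of members and in 4.63% and 3.51% of non-cycling cells, which lies within the members' intervals. Its log2 difference was -0.58 ± 0.19 (limma adjusted p = 0.0144), and it did not pass without the library block, with the stricter gate, among cells with Epyc or among cells of at most 3000 genes. Fgf20, a medial prosensory ligand, was found in 1.06% and 3.26% against 2.40% and 2.38%, with no common direction. Its CPM was 4.25 and 15.3 against 21.9 and 23.1, a log2 difference of -0.77 that did not pass without the library block or among cells of at most 3000 genes. Fgfr3, the receptor that marks lateral prosensory cells, was found in none of the thinned members (a count of 0 allows up to 3.19% and 1.63%) and in 3.01% and 2.51% of non-cycling cells. Its level was 3.30 and 1.54 CPM against 24.8 and 20.1 CPM, a log2 difference of -1.39 ± 0.22 (limma adjusted p = 1.75e-08). Fgfr3 and Fgf20 averaged 2.42 and 9.80 CPM in cycling cells. Both thus reached the 10 CPM minimum for the test only through the non-cycling cells.

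**Figure D4:**
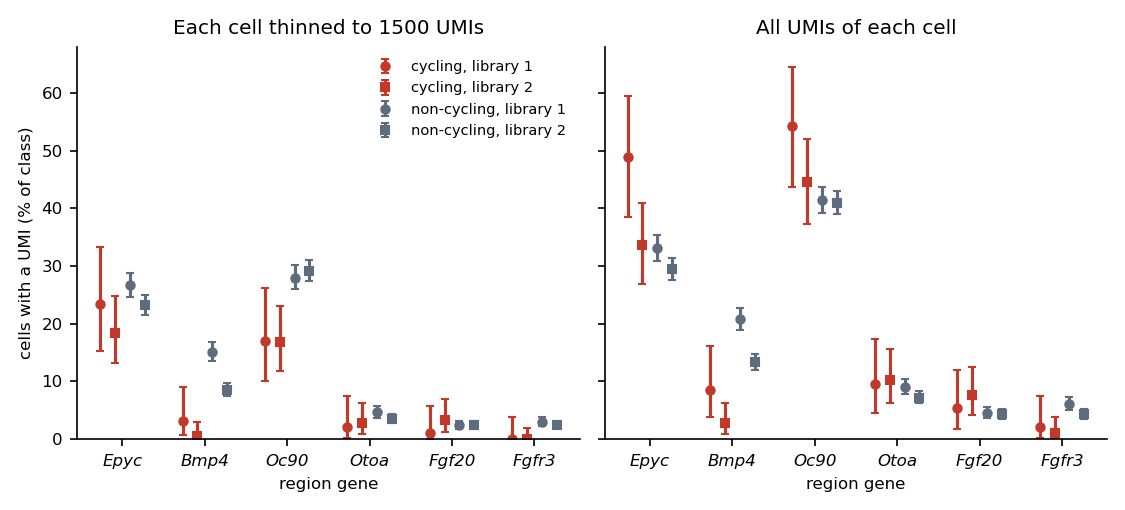
Percent of cycling (red) and non-cycling (grey) E14 cells with a UMI of each region gene, per library, with exact 95% binomial intervals, thinned to 1500 UMIs (left) and unthinned (right). Bmp4, Oc90 and Fgfr3 lie lower in cycling cells when thinned, and Oc90 and Epyc lie higher in cycling cells when all UMIs of the deeper cells are used.

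The direction of 4 of these differences, as means over the 2 libraries, turned with thinning. Without thinning, Epyc, Oc90, Otoa and Fgf20 were found more often in cycling than in non-cycling cells of both libraries (Epyc 48.9% and 33.7% against 33.1% and 29.5%), and Bmp4 and Fgfr3 less often. The CPM of all 6 genes were lower in cycling cells of both libraries. The gate itself used all UMIs of a cell. With the gate also applied to thinned cells, which left 14 and 28 members, 0.688% and 0.598% of cells with Oc90 were cycling, against 0.618% and 1.04% of cells without it, and 0.885% and 0.581% of cells with Epyc, against 0.551% and 1.01%. The libraries went apart for both genes and the intervals overlapped. None of 289 and 221 cells with Bmp4 was cycling (exact 95% upper limits 1.27% and 1.66%), against 0.733% and 0.988% of cells without it.

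The wider lists followed the single genes on the lateral side. Counts are over the genes that reached a mean of 10 CPM, and a gene can reach it through the class in which it is high. Of 18 genes of the lesser epithelial ridge, 13 fell and none rose. Fst (follistatin, which binds activins) was at 48.2 and 18.4 CPM against 276 and 266 CPM, a log2 difference of -2.79 ± 0.13 (limma adjusted p = 2.63e-55). It differed by -2.29 in library 1 and by -3.28 in library 2, wider apart than the shared spread. Gata2, a transcription factor, was at 68.9 and 29.5 CPM against 302 and 217 CPM. Of 8 roof genes compared, 6 fell, among them Clu (clusterin; 2006 and 1539 CPM against 4386 and 3319 CPM) and Fgf9, a ligand of the epithelium, with a log2 difference of -1.15. Of 14 lateral prosensory genes compared, 10 fell and none rose, led by Rprm, an inhibitor of the G2 to M step, at 21.4 and 10.5 CPM against 143 and 129 CPM, and Emid1, whose call was lost among cells with Epyc. Rprm is also a gene of hair cells, which are in the non-cycling class, and its log2 difference was -2.52 with them and -2.38 without them. Only cells with UMIs of both Pou4f3 and Ccer2 were left out, so a hair cell in which either was missed stayed in. The part of hair cells in the Rprm difference was not tested. Without the 10 CPM minimum, 9 of 15 roof, 12 of 18 lateral prosensory and 11 of 20 hair cell genes fell and none rose. Only 6 of the 20 hair cell genes reached the minimum, Pou4f3, Ccer2 and Pcp4 of them only through the non-cycling cells, and their count is not read. Pou4f3 had no UMI in the cycling cells of either library and 27.0 and 26.0 CPM in the non-cycling cells, and Ccer2 and Pcp4 were below 8 CPM in each library against 87.5 to 104 CPM. With the hair cells left out of the non-cycling class, 1215 genes were called higher and 1413 lower. Among cells with an Epyc UMI, fewer cells remained, and 10.2% of 8804 genes were called (480 higher and 421 lower). There 5 of 14 genes of the lesser epithelial ridge fell (median log2 difference -0.33, against -0.81 for all cells). Of 10 lateral prosensory genes 2 fell (-0.14, against -0.77).

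The medial lists were divided. Of 16 genes of Kölliker's organ, 7 fell and 3 rose. Tecta, the tectorial membrane protein made by these cells, was the largest rise, from 364 and 360 CPM in non-cycling cells to 1081 and 1059 CPM in cycling cells (log2 difference 1.54 ± 0.07, limma adjusted p = 1.33e-55). Fgf10, a ligand of Kölliker's organ, rose from 19.3 and 20.4 CPM to 48.8 and 81.9 CPM, and the matrix gene Fbln1 from 62.7 and 63.0 CPM to 159 and 142 CPM. All 3 rose under each setting of the E14 fit, and with non-cycling cells weighted by depth 7 genes of the list rose and 4 fell, whereas without the library block 3 rose and 1 fell. Of 15 interdental genes (5 fell and none rose among cells with Epyc) 6 fell, led by Igfbp5 (log2 difference -1.42) and Msx1 (-1.15), and 3 rose, led by Wnt5a (0.84). Of 10 medial prosensory genes (none passed among cells with Epyc) 4 fell and 3 rose, led by Cdkn1b and by Prdm16 (0.79), a chromatin regulator. Wnt5a and Prdm16 did not pass among cells of at most 3000 genes or among cells with Epyc, nor Prdm16 with the stricter gate. Sox2, the prosensory transcription factor, was at 101 and 45.2 CPM against 67.0 and 26.7 CPM, a log2 difference of 0.56 (limma adjusted p = 0.00307). The call was lost without the library block, with the stricter gate, among cells with Epyc and among cells of at most 3000 genes. After thinning, Sox2 was found in 8.51% and 3.26% of members and 8.15% and 3.26% of non-cycling cells, and without thinning in 37.2% and 24.5% against 14.9% and 7.74%. The thinned shares and the CPM do not give 1 order, and none is read.

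**Figure D5:**
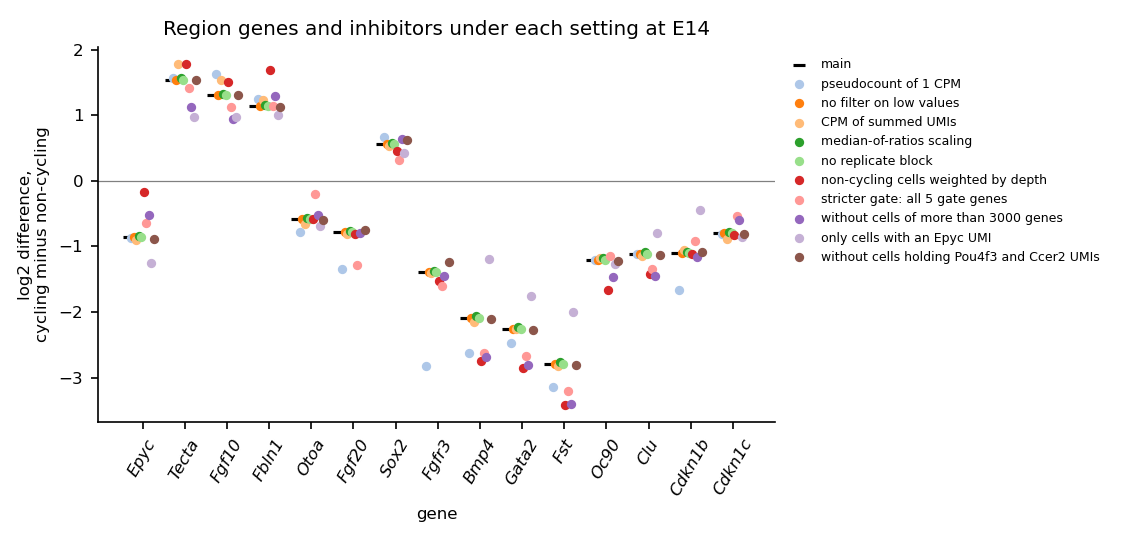
Log2 difference, cycling minus non-cycling, of region genes and inhibitors at E14, as reported (black bar) and under 10 other settings (points). Tecta, Fgf10 and Fbln1 stay above 0 and Bmp4, Gata2, Fst and Oc90 below it, and Epyc moves to -0.16 when non-cycling cells are weighted by depth.

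Of 13 genes listed with the Notch pathway, 6 fell and 3 rose (2 and 1 without the library block, 2 and none among cells with Epyc). The list includes Id genes and Hes6, which are not taken as Notch targets here. No direction of Notch signalling is read from it. Id4 and Id1, inhibitors of bHLH factors, were among those that fell. Id4 was at 118 and 72.7 CPM against 315 and 242 CPM, and Id1 at 201 and 141 CPM against 343 and 228 CPM. Hes6 also fell (-0.80), and the Notch target Nrarp rose by 0.69. Id1 did not pass without the library block, and Id1, Hes6 and Nrarp did not pass among cells with Epyc. Of 9 genes that read out Wnt, FGF and Shh signalling, 3 rose and 1 fell. Gli3, a transcription factor of the Shh pathway, rose by 1.01 but did not pass among cells of at most 3000 genes, and the Wnt target Lgr5 fell by 0.97. Of 18 Myc and progenitor genes 4 rose and 2 fell, a share near the 28.9% called over all genes, with Sox11 at 620 and 674 CPM against 344 and 370 CPM, Lin28b at 29.4 and 26.4 CPM against 13.8 and 13.5 CPM and Cyr61, a YAP target, lower by a log2 difference of -0.45. Of 21 genes of ribosome biogenesis and translation 8 rose and 2 fell, but only 1 rose without the library block, with the stricter gate or among cells with Epyc, and 3 among cells of at most 3000 genes. Among cells of at most 3000 genes 1 of the Notch genes rose and 5 fell, 1 of the Myc and progenitor genes rose and 1 fell, and none of the Wnt, FGF and Shh genes rose and 1 fell. Odc1, of polyamine synthesis, rose by 0.86 and Eif4ebp1, a brake on translation, fell by 0.64, and both Eif4ebp1 and Lin28b did not pass among cells of at most 3000 genes or among cells with Epyc, nor Lin28b with the stricter gate.

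Glycolytic genes were mostly lower, with 9 of 15 falling and 1 rising (5 and none without the library block). Aldoa was at 302 and 264 CPM against 619 and 581 CPM and Aldoc at 81.4 and 92.9 CPM against 187 and 193 CPM, whereas Gapdh was at 714 and 507 CPM against 476 and 347 CPM, a call lost without the library block. Of 20 genes of apical junctions and polarity 7 fell and 2 rose (3 and 1 among cells with Epyc). The claudin Cldn4 fell from 459 and 467 CPM to 187 and 129 CPM, and Cdh4 (R-cadherin) and Celsr1, of planar cell polarity, rose by 1.25 and 0.91, of which Celsr1 did not pass among cells of at most 3000 genes or among cells with Epyc. The immediate early and heat shock genes, which also respond to dissociation, moved with the classes. Of 13, 7 fell and 1 rose (4 and none without the library block), with Fos at 130 and 156 CPM against 312 and 373 CPM and Junb at 236 and 244 CPM against 540 and 620 CPM, and their part in the differences was not tested. Mitochondrial genes made up a mean of 0.787% and 0.971% of UMIs in cycling and 0.663% and 0.879% in non-cycling cells. Their part was likewise not tested. Of 5 neuron and glia genes compared, Stmn2 fell (-0.56), a call lost under 6 of 10 other settings, and the single genes compared of the mesenchyme and of the blood list did not pass.

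The genes of largest change outside all lists were named by size. The 10 largest rises were Pimreg, Ska1, Gmnn, Dlgap5, Asf1b, Mis18a, Shcbp1, Cenph, Tubb4b and Dnajc9, with log2 differences from 3.48 to 1.93. Pimreg, a mitotic regulator, was at 138 and 112 CPM against 2.20 and 1.85 CPM. Gmnn (geminin, which blocks a second round of replication) was at 173 and 206 CPM against 24.9 and 25.4 CPM. Ska1 and Cenph are kinetochore proteins, Mis18a takes part in loading Cenpa and Asf1b is a histone chaperone. The gate chose cells by cell cycle genes, so these rises are not evidence apart from it.

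The 10 largest falls were Tac1, S100a1, Plet1, Hs3st1, Igf1, Sgk1, Slc6a15, Ptgds, Emx2 and Ttr, with log2 differences from -3.08 to -1.59. All 10 reached 50 CPM, the minimum for naming, through the non-cycling cells alone. Tac1 averaged 9.87 CPM in cycling cells and reached the 10 CPM minimum for the test in the same way. These falls are thus not evidence apart from that choice. Tac1, the tachykinin precursor, was at 17.5 and 2.29 CPM in cycling cells against 147 and 143 CPM. S100a1, a calcium-binding protein, was at 31.4 and 33.8 CPM against 218 and 209 CPM. Emx2, a homeobox factor of the duct, was at 17.1 and 4.35 CPM against 64.4 and 41.1 CPM. The fall of Sgk1, a kinase, did not pass among cells with Epyc. The growth factor Igf1 was at 17.0 and 30.5 CPM against 91.4 and 114 CPM. The fall of Ttr rested on library 1, with 0 against 80.2 CPM there and 48.3 against 48.9 CPM in library 2.

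At E16, where the same gate passed 40 of 7961 cells, the levels and shares are given with no test. Epyc was at 659, 713 and 773 CPM in cycling cells of the 3 libraries and at 1760, 2363 and 2324 CPM in non-cycling cells. Fgfr3 had no UMI in the 40 cells and 69.9, 56.6 and 23.8 CPM in non-cycling cells. Bmp4 was found in 1 of the 40, and Oc90 had no common direction, at 2729, 158 and 3927 CPM against 1155, 957 and 3102 CPM. Tecta was at 539, 648 and 561 CPM against 557, 504 and 509 CPM, so that its classes overlapped, unlike at E14. Cdkn1b was at 61.1, 60.4 and 35.9 CPM against 43.7, 43.5 and 38.4 CPM. In CPM the classes at E16 thus overlapped for Cdkn1b, Tecta and Oc90, whereas those of Epyc did not. For scale, 1 UMI over the summed UMIs of the cycling cells makes 34.9, 8.30 and 20.3 CPM in the 3 libraries. The non-cycling level of Fgfr3 lay near that in library 3 and furthest above it in library 2. With 8, 19 and 13 cycling cells, its 0 was not tested and is not read as a difference.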

How the data were processed

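Cells from the floor of the cochlear duct of wildtype CD1 mice were captured in 11 libraries (E14 2, E16 3, P1 4, P7 2). The authors counted UMIs with Cell Ranger 2.1.1 on mm10 and filtered and normalized cells in Seurat 2.0, per the labels and methods. The deposited values are natural log values, ln(1 + 10000 × share), where share is the fraction of a cell's UMIs that fell on a gene. Cells of high mitochondrial or stress gene content had been left out by the authors. The study's methods state an upper limit of 3000 genes joined to a UMI limit, but cells of more than 3000 genes are in the tables and were kept. UMIs were recovered from the values and were whole within 2% for 100% of E14 values above 0.

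The members, the gene lists and the regions were chosen with earlier results of these data known. Groups were taken from the sample titles and cells were placed by the library name in their deposited names. The 2 E14 libraries shared 11 cell barcodes. The total was 10284467 UMIs in E14 library 1 and 14420835 in library 2 (median per cell 3507.5 and 3317). For each library and class, the mean CPM of its cells was taken, genes under a mean of 10 CPM were left out, and log2(CPM + 10) was compared with limma 3.58.1 (R 4.3.3; trend, library as a block, Benjamini-Hochberg threshold 0.05). Since both classes come from the same library, library is a true pairing. Fold changes on this scale understate those of low genes. For the 5 gate genes and the cell cycle lists, which the gate drew on, no test is reported, although they were in the fit and count in its totals and adjustment. The planned fit with E16 needed 20 cells a class, and the E16 libraries had 8, 19 and 13 cycling cells, so E14 was fitted alone. No result of E16 or of E14 against E16 was made by that plan, and fits with a minimum of 5 cells were added after seeing the data. In a simulation of 8763 genes for the E14 comparison, the fit recovered 44% of 50 genes changed 1.5-fold, 92% at 2-fold and 100% at 4-fold and 8-fold. Of 185 calls, 17 (9.19%) were false, above the nominal level. The simulation changed only 50 genes at each fold, gave all genes the same dispersion and held no spread between cells. Its false share is thus not that of the real calls. Shares of cells were taken after thinning each cell to 1500 UMIs without replacement, with exact (Clopper-Pearson) 95% intervals, and 3 counts served as the limit for a count of 0. Intervals cover counting error only. Per the study's reporting summary, each collection pooled animals of a single litter. The permutation p-values set these collections against each other. The limma p-values of the E14 fit rest on how far the class difference varied between the 2 libraries. That spread was taken almost wholly from all genes together.

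Named genes were the gate genes, the 6 region genes and members of the lists by size or as defining genes. These were mostly 2 to 4 a list, with more for some, such as the inhibitor, cyclin and S phase lists. Outside all lists, the 10 largest rises and falls that passed, moved the same way in both libraries and reached 50 CPM were named. The 50 CPM had to be reached in the higher class only. Promoters are RefSeq windows of GRCm38.p6, the build of mm10. Alternatives were a pseudocount of 1, no filter, CPM of summed UMIs, median-of-ratios scaling, no block, depth weighting, the gate of all 5 genes, cells of at most 3000 genes, cells with Epyc, other UMI minima and leaving out libraries.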

Additional observations from a re-analysis of the deposited data

Results flagged for a closer look

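In the added fit that weighted libraries, the cycling difference of 5 of the 71 genes chosen by the naming rule and outside the cell cycle lists differed between E14 and E16 by a test of the difference itself, as did 46 of all 8971 genes (0.513%). Many of the 71 were named by the size of their E14 difference, which is part of what was tested. The 5 are thus not read as an excess over the share of all genes. The weighted fit rests on E16 libraries of 8, 19 and 13 cycling cells, and without weights no gene passed (limma adjusted p = 0.973 for each of the 5 genes). Tecta was higher in cycling cells by 1.54 on the log2 scale at E14 and by 0.15 at E16, a difference of 1.39 (limma adjusted p = 0.000115 with weights). Btg2 was lower at both ages, with log2 differences of -1.22 and -2.94 (1.72 apart, limma adjusted p = 0.0109 with weights). S100a1 was likewise lower at both, with -2.39 and -5.31 (2.92 apart, limma adjusted p = 0.000411 with weights). Id1, with log2 differences of -0.70 and -2.11, was 1.41 apart (limma adjusted p = 0.00579 with weights), and Cyr61, with -0.45 and -1.77, was 1.32 apart (limma adjusted p = 0.000148 with weights).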

How the results depend on the processing

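Of the 2 counts of genes, 1198 higher and 1397 lower, those under a pseudocount of 1, no filter, summed UMIs, median-of-ratios scaling, depth weighting, omission of hair cells and weighted sharing of the spread with E16 stayed within 1.5 times. Without the library block (no replicate block, which ignores the pairing of classes) they were 574 and 522, with all 5 gate genes required 635 and 744, among cells of at most 3000 genes 515 and 556, and among cells with Epyc 480 and 421, where fewer cells remained. With E16 sharing the spread unweighted they were 38 and 2. Leaving out an E14 library was possible only in that fit, where the lone E14 library is assumed to vary like the E16 libraries, and gave 23 to 25 higher and 3 lower. Directions of the named genes held under these settings except for Mcm4 without cells over 3000 genes (-0.078) and Zwint among cells with Epyc (0.046). Differences of the thinned region shares, in percentage points, reversed without thinning for Epyc (10.0), Oc90 (8.21), Otoa (1.83) and Fgf20 (2.02), and without cells over 3000 genes for Epyc (3.05) and Fgf20 (0.16). Leaving out a library gave -1.34 to 0.88 for Fgf20 and -2.50 to -0.80 for Otoa, which were -0.23 and -1.65 with both, and these became -1.41 and -2.60 with the stricter gate and -0.68 and -0.84 at 2 or more UMIs. Others moved without a change of direction, Fgfr3 to -3.57 without thinning, Otoa to -3.51 without cells over 3000 genes, Bmp4, Oc90 and Fgfr3 to -4.93, -10.1 and -0.59 at 2 or more UMIs, and Epyc and Oc90 to -0.65 and -9.73 at 10 or more. The embryonic excess of cycling cells passed under each alternative, with exact permutation p from 0.00794 to 0.0346. Each alternative used genes of the gate and kept at least 1 E14 library, so it adds no support apart from the gate. The expression fit with the gate on thinned cells was not run, since 14 and 28 cells were left. The causes were not tested. A region gene at under 1 UMI in 1500 is often missed in a thinned cell.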

Other observations

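The 10 P7 cells that passed the gate differed from the E14 members in other markers. All 10 held UMIs of the mesenchyme list, at a median of 0.342% of their UMIs, and all 10 held UMIs of the neuron and glia list, at a median of 0.278%. Among the P7 cells with none of the 5 gate genes, 43.0% and 35.2% held such UMIs, and among the 278 E14 members 14.4% and 80.6% did, at medians of 0 and 0.0254%.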
